A study of Mus musculus with 2 samples.

Results

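The genes for the calcium and potassium channels that set the excitability of smooth muscle were described in DNase-seq data of the mouse urinary bladder. DNase-seq cuts chromatin with the enzyme DNase I, and a peak marks a stretch of open chromatin. The 10 genes were Kcnma1, Kcnmb1, Cacna1c, Cacnb2, Ryr2, Itpr1, Kcnj8, Kcnj11, Abcc9 and Ano1, chosen by symbol among 21938 protein-coding genes in GENCODE M21 on mm10. The samples were whole bladders of 2 female B6CASTF1/J mice aged 36 days, called replicate 1 and replicate 2, with 1 library each. B6CASTF1/J mice are the first-generation cross of a C57BL/6 and a CAST parent, so both parental genomes were present in every nucleus. Both animals had the same strain, sex, age and tissue, no treatment is named in the labels, and no second condition or control was part of the design. Every value is therefore a description with the spread between 2 animals, and no test between conditions was possible.

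The detrusor, the muscle of the bladder wall, contracts when its cells depolarise and calcium enters through L-type channels. Calcium released from the sarcoplasmic reticulum through ryanodine and inositol trisphosphate receptors adds to this signal and also opens large-conductance calcium-activated potassium channels, called BK channels, which pull the membrane back towards rest. ATP-sensitive potassium channels open when ATP falls and quieten the muscle, while calcium-activated chloride channels depolarise many smooth muscles and their pacemaker cells.

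The peak lists held 117773 peaks in replicate 1 and 102671 in replicate 2, and the footprint lists held 280105 and 247833 footprints. A footprint is a short protected stretch within open chromatin. Peak height is the authors' signal, and the median over all peaks was 0.845 in replicate 1 and 0.739 in replicate 2. Starts of 7 of 7 smooth muscle, 5 of 5 urothelial, 4 of 4 fibroblast and 3 of 3 pericyte markers were open in both animals, as was that of Kit, which marks interstitial cells. The defining cardiac genes Myh6, Nppa and Nkx2-5, the skeletal muscle gene Myod1, and the leukocyte genes Ptprc and Cd3e had no open start in either animal. The third leukocyte marker, Cd68, had a start peak of 1.02 in replicate 2 alone. Of the endothelial markers 2 of 3 were open in both animals, of the nerve markers 3 of 3 and of the glial markers 1 of 3. Tnni3 of the heart list was open at 0.703 in replicate 1 and 0.603 in replicate 2, and Ckm and Actn3 of the skeletal muscle list were open in both animals. In whole tissue, a site open in few cells and a site weakly open in many cells cannot be told apart, and this holds for every height below.

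At least 1 annotated start was open in both animals for 9 of the 10 channel genes, and the exception, Kcnmb1, had a peak at its start in replicate 2 alone. A start was called open when a peak lay within 1 kb of it. Starts of 1 gene within 500 bp of their neighbour were joined into a cluster, and the 132 annotated transcripts formed 58 clusters. Of these, 16 were open in both animals (27.6%), 1 in replicate 1 alone, 2 in replicate 2 alone and 39 in neither. Among all protein-coding genes, 38.7% of start clusters were open in both animals and 66.8% of genes had at least 1 such start. Taken one by one, 35 of 91 distinct starts of the channel genes were open in both animals, against 55.5% of all distinct starts. Most channel gene starts were thus closed, and the open share was below the background by either count. The share of genes with an open start was close to the 87.5% of protein-coding genes over 100 kb, a length that most of the 10 exceed.

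The open starts of the channel genes were low. Over the clusters open in both animals the median height was 1.13 in replicate 1 and 0.968 in replicate 2, against 3.84 and 2.86 for all open clusters of protein-coding genes. Itpr1 alone had a start above those medians. Coding clusters were open in 13 of 30 cases and clusters with non-coding transcripts alone in 3 of 28, against 51.2% and 15.4% over all protein-coding genes. Open clusters had more CpG dinucleotides than closed ones within 500 bp, with a median observed-to-expected ratio of 0.575 against 0.233 and a median GC content of 56.7% against 46.2%. Of the 39 closed clusters, 1 held any base that passed the deposited false discovery rate threshold of 0.05 in replicate 1 and 0 did in replicate 2.

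**Figure D1:**
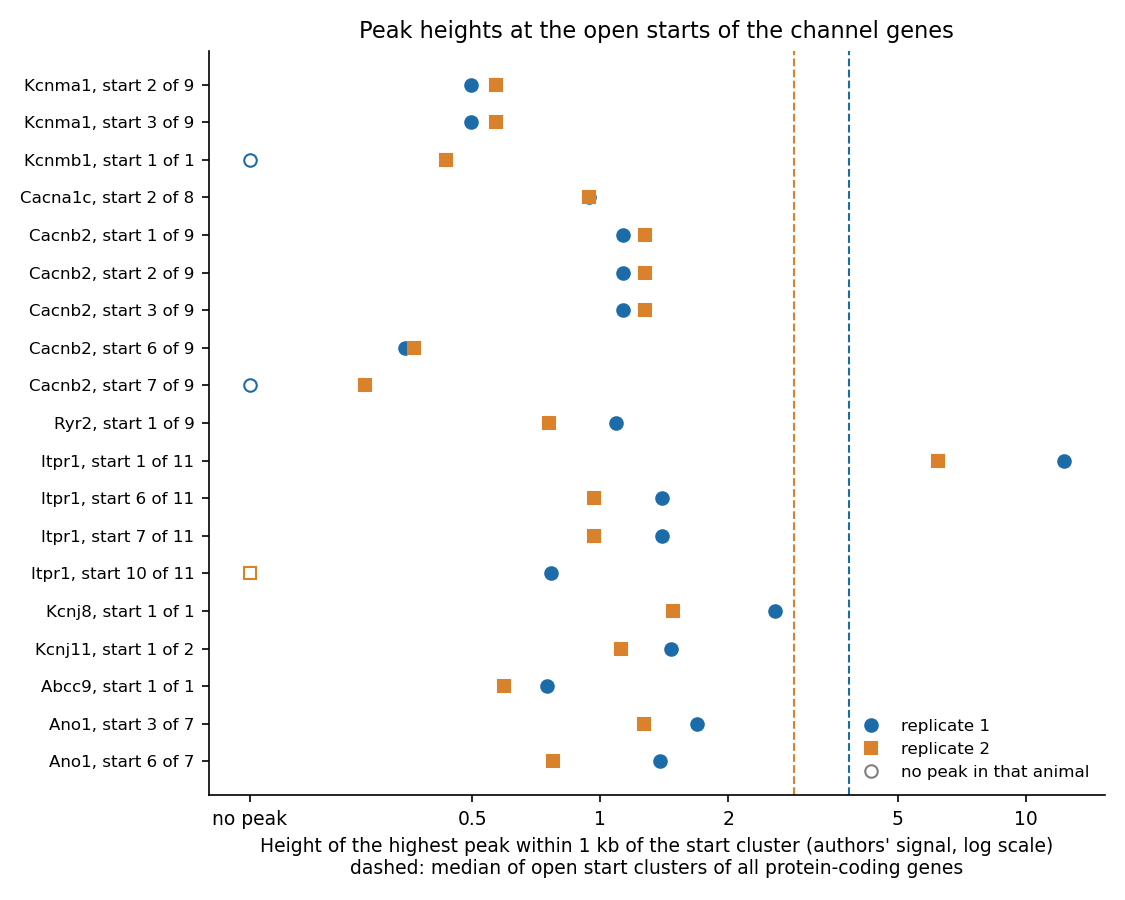
Height of the highest peak within 1 kb of each start cluster of the channel genes that had a peak in at least 1 animal, on a log axis in the authors' signal, with circles for replicate 1, squares for replicate 2 and open symbols where an animal had no peak. The first Itpr1 start, at 12.3 and 6.23, lies above the dashed medians of all open starts (3.84 in replicate 1 and 2.86 in replicate 2), and the other starts lie below them.

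The order of the genes by the mean height of their highest start ran from Itpr1 through Kcnj8, Ano1, Kcnj11, Cacnb2, Cacna1c, Ryr2, Abcc9 and Kcnma1 to Kcnmb1. The values of Itpr1 (9.27 ± 4.30, SD, n = 2) and Kcnj8 (2.03 ± 0.769, n = 2) did not overlap. Kcnj8, Ano1 (1.48 ± 0.300), Kcnj11 (1.29 ± 0.246) and Cacnb2 (1.20 ± 0.103) each overlapped their neighbour in the order, as did Cacna1c (0.941 ± 0.002) and Ryr2 (0.923 ± 0.236). Cacnb2 and Cacna1c did not overlap. Ryr2, Abcc9 (0.672 ± 0.110), Kcnma1 (0.533 ± 0.051) and Kcnmb1 also lay apart from each other, with gaps that were small between Ryr2 and Abcc9.

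Kcnma1 encodes the pore of the BK channel. Its most upstream annotated start on chromosome 14 (24014491, minus strand) had no peak within 1 kb in either animal. The open starts lay 9.63 and 10.2 kb further in, where 1 and 21 transcripts begin, and the highest peak reached 0.497 in replicate 1 and 0.569 in replicate 2. Instead of a single tall peak, this CpG-rich stretch (observed-to-expected ratios of 0.780 and 0.862) held a row of low peaks, of which 4 were found in both animals. Every peak of this row also lay within 1 kb of a start of 4930519K11Rik, which is not classed as protein-coding. These peaks thus cannot be assigned to Kcnma1 alone. Between 1329 and 1688 bases around each of the 2 open clusters passed the false discovery threshold. The remaining 6 start clusters of Kcnma1 were closed in both animals.

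The highest Kcnma1 site lay in an intron 6.02 kb downstream of the closed upstream start, at 2.70 in replicate 1 and 2.45 in replicate 2. From the nearest open start it lay at -3612 bp, upstream of both open starts. It is thus intronic only for the transcript that begins at the closed start. It was several times as high as either open start of the gene, in both animals. Its sequence is shown because this intron site, rather than a start, was the strongest signal of the BK pore gene. It is read on the minus strand of GRCm38, chr14:24008381-24008560, with capitals inside a footprint of each animal:
Kcnma1 intron site: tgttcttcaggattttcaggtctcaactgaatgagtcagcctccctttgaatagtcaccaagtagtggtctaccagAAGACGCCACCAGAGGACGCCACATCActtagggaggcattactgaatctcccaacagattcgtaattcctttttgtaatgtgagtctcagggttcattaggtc
The 27 capitals form an unbroken run. Bases 83 to 94 of the stretch differ by 1 letter from the 12-letter core to which the insulator protein CTCF is known to bind, and all 12 are in capitals. An AP-1 match (TGANTCA) at bases 32 to 38 lies outside the capitals. The comparison with the CTCF core was chosen after the sequence was seen. It took the best match over both strands of the whole stretch, and the share of other sites with such a near match was not measured.

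Kcnma1 held 23 sites found in both animals among 39, over a gene body of 725 kb. Of these 23, 18 were intronic, and tall ones were spread along the gene at 55.3 kb (2.01 and 0.883), 129 kb (2.14 and 1.27), 223 kb (1.71 and 1.38) and 485 kb (1.66 and 1.16) from the upstream end, replicate 1 first in each pair. At 520 kb a site overlapping an exon reached 1.67 in replicate 1 and 1.47 in replicate 2. These tall sites exceeded the start peaks in both animals. Other intron sites were lower than the start peaks in both animals, such as those at 159 kb (0.403 and 0.365) and 307 kb (0.339 and 0.374).

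Kcnmb1 encodes the accessory subunit that raises the calcium sensitivity of BK channels in smooth muscle. It had the weakest signal of the 10 genes. Its single start on chromosome 11 (33963013, plus strand) had no peak in replicate 1 and a peak of 0.433 in replicate 2, and the CpG ratio there was 0.179. The start lies inside Kcnip1, a longer gene, so peaks around it cannot be assigned to 1 of the 2 genes. Of 4 sites in its domain, 1 was found in both animals, at -4.10 kb from the start (chr11:33958844-33958991), with heights of 0.521 in replicate 1 and 0.544 in replicate 2. That site carried the CTCF core letters, within a footprint of replicate 1 alone.

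Cacna1c encodes the pore of the L-type calcium channel, the main route of calcium entry in detrusor. It had a single open start cluster of 8, on chromosome 6 at 87.8 kb inside the gene (119107975 to 119108573, minus strand), where 12 transcripts begin. Its height was 0.939 in replicate 1 and 0.943 in replicate 2, so the animals were nearly equal. The most upstream cluster had no peak and no base past the false discovery threshold in either animal. The open cluster had the highest CpG ratio of the gene, 1.03, and 3 low sites found in both animals lay across it. The inner start was the open one here as in Kcnma1 and Ano1.

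Of 38 Cacna1c sites, 23 were found in both animals. The tallest, at 4.0 in replicate 1 and 3.44 in replicate 2, was the start of Dcp1b, an mRNA decapping factor whose gene starts 21.2 kb from the upstream end of Cacna1c. Among sites away from starts, the 3 highest were intronic, at 92.0 kb (2.16 and 1.65), 273 kb (2.03 and 1.52) and 550 kb (1.84 and 1.53). All 3 held the CTCF core in a footprint of each animal.

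Cacnb2 encodes an accessory subunit that brings L-type channels to the membrane. Its 3 most upstream clusters on chromosome 2, within 2.03 kb of each other, shared 1 broad open site (chr2:14603961-14605040) at 1.13 in replicate 1 and 1.27 in replicate 2. A further start at 221 kb was open at 0.347 in replicate 1 and 0.365 in replicate 2, and a start at 271 kb had a peak of 0.280 in replicate 2 alone. No intron site of Cacnb2 exceeded 0.568 in replicate 1 or 0.561 in replicate 2. Cacnb2 was thus open mainly at its start, and its distal density was among the lowest of the 10 genes.

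Ryr2 encodes the ryanodine receptor, the store release channel best known from heart and also present in smooth muscle. Of 9 start clusters, the most upstream alone was open, at 1.09 in replicate 1 and 0.756 in replicate 2. Its highest site lay 543 kb away near the far end of the gene, in an intron, at 1.70 in replicate 1 and 1.18 in replicate 2, and it held the CTCF core in a footprint of each animal. Between these ends of a 554 kb gene, sites were sparse and low. Of 18 sites, 8 were found in both animals.

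Itpr1 encodes the inositol trisphosphate receptor through which transmitter signals release stored calcium. It had the tallest start of the 10 genes, at 12.3 in replicate 1 and 6.23 in replicate 2, at the most upstream of 11 clusters on chromosome 6. Clusters at 204 and 205 kb inside the gene shared a peak of 1.40 in replicate 1 and 0.968 in replicate 2, and a cluster at 295 kb had a peak of 0.766 in replicate 1 alone. The first start was taller than the start of every other member in both animals. Its sequence, on the plus strand of GRCm38, chr6:108212881-108213080, ends just before the first annotated transcript base, and capitals again mark bases inside a footprint of each animal:
Itpr1 start site: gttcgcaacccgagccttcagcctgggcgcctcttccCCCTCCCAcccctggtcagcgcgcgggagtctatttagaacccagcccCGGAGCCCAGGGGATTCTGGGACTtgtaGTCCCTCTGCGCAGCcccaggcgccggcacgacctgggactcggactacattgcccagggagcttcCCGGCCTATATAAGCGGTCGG
Footprints of both animals covered 68 of the 200 bases. Bases 186 to 192 read TATATAA, the letters of a TATA box, whose last base lies 24 bp before the start, and all 7 are in capitals. These letters occurred in 0.604% of 200 bp windows at the 80169 sites found in both animals, and in 3.24% of 32851 RefSeq promoters of 300 bp. Bases 102 to 115 match ACTACANNTCCCAG on the minus strand, letters known from sites of the zinc finger protein ZNF143, with 10 of the bases in capitals. They occurred in 0.358% of the same site windows and 1.03% of RefSeq promoters. Both motifs were chosen after the sequence was seen, on both strands, and each match is a description of letters.

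Itpr1 had 47 sites, the most of the 10 genes, with 28 in both animals, 18 in replicate 1 alone and 1 in replicate 2 alone. The tallest away from any start lay in the downstream flank (chr6:108570961-108571200), 358 kb from the upstream end, at 6.42 in replicate 1 and 3.64 in replicate 2. It stood at percentile 92.5 in replicate 1 and 90.1 in replicate 2 of all sites found in both animals. Introns held further sites of 3.46 and 2.16 at 214 kb, 2.69 and 1.80 at 264 kb, and 3.06 and 1.10 at 20.1 kb, replicate 1 first. All of these were lower in replicate 2.

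Kcnj8 encodes the pore of the ATP-sensitive potassium channel that is typical of vascular smooth muscle and pericytes. Its single start cluster on chromosome 6 was open at 2.57 in replicate 1 and 1.49 in replicate 2, the second highest start of the 10. Abcc9 encodes the sulfonylurea receptor that completes this channel, and it lies beside Kcnj8 on the same strand. Its start was lower, at 0.750 in replicate 1 and 0.595 in replicate 2. Both animals thus had the pore gene more open at its start than its partner.

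The highest site inside Abcc9 was intronic, 33.9 kb from its start (chr6:142668181-142668560), at 1.51 in replicate 1 and 1.53 in replicate 2, above the start of Abcc9 in both animals. A nearby intron site at 33.4 kb, at 0.474 in replicate 1 and 0.510 in replicate 2, carried the letters of a CArG box, to which serum response factor binds in many smooth muscle genes. No footprint of either animal lay in it. The domains of Kcnj8 and Abcc9 overlap, and 4 sites were counted for both genes. Of Abcc9 sites 8 of 11 were found in both animals, the highest share of the 10 genes.

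Kcnj11 encodes the other ATP-sensitive channel pore, best known from pancreatic beta cells. Its first start cluster on chromosome 7 was open at 1.47 in replicate 1 and 1.12 in replicate 2, and an intron site 4.46 kb away reached 1.29 and 1.07. Both sites held the CTCF core in a footprint of each animal. Abcc8, the receptor that pairs with Kcnj11 in beta cells and lies next to it, had no open start in either animal. The start of Abcc9, the partner in smooth muscle, was open in both.

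Ano1 encodes a calcium-activated chloride channel, known as a marker of gastrointestinal pacemaker cells. Both of its upstream start clusters on chromosome 7 were closed. The third cluster, 73.1 kb inside the gene, was open at 1.69 in replicate 1 and 1.27 in replicate 2, although the smaller list of replicate 2 held no peak there. A non-coding start at 115 kb had a peak of 1.38 in replicate 1 and 0.773 in replicate 2 within its window. The inner start had a CpG ratio of 0.810, against 0.193 and 0.458 at the closed upstream clusters.

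Around Ano1, 17 of 33 sites were found in both animals. The tallest, at 9.46 in replicate 1 and 7.44 in replicate 2, belonged to the start of Fadd, a death receptor adaptor whose gene lies in the downstream flank. A neighbouring Fadd site of 4.29 in replicate 1 held no peak of replicate 2, although replicate 2 had 4 footprints there. In the gene body and 20 kb flanks, replicate 1 alone had 11 sites and replicate 2 alone had 5.

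**Figure D2:**
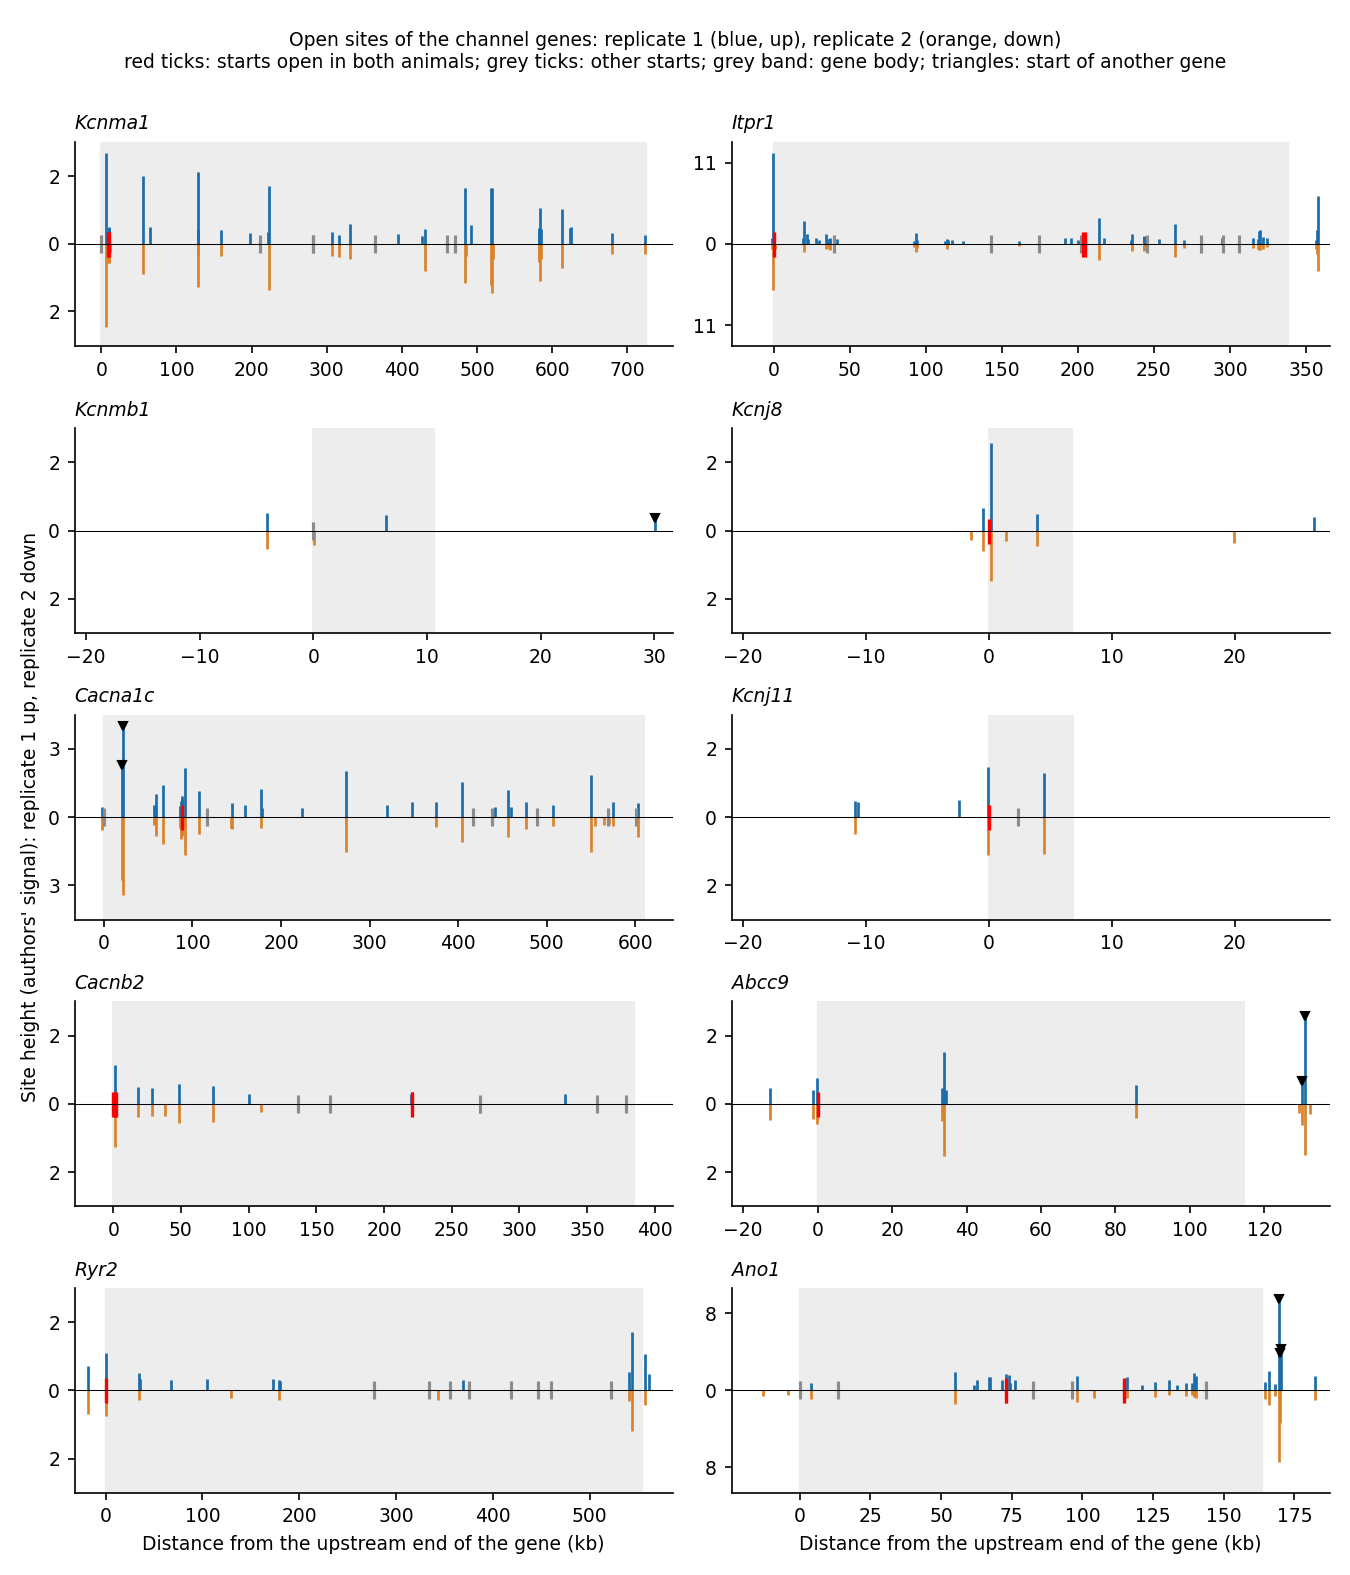
Height of every site of the 10 channel genes against distance in kb from the upstream end of the gene, in the authors' signal, with replicate 1 upwards and replicate 2 downwards and a separate height scale for each gene. Red ticks mark the start clusters open in both animals, grey ticks the other clusters, grey bands the gene bodies and triangles the starts of other genes. In Kcnma1, Cacna1c and Ano1 the first red tick lies 9.63, 87.8 and 73.1 kb inside the gene, while Itpr1 has its tallest site, 12.3 and 6.23, at the upstream end.

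The most upstream start was open in both animals for 6 of the 10 genes, against 62.2% of all protein-coding genes. Among protein-coding genes over 100 kb, as most members are, the share was 78.2%. Cacnb2 is among the 6, but the middle of its peak lay 1213 and 1283 bp from the first start, replicate 1 first. Only the edge of that peak was within 1 kb. Kcnma1, Cacna1c and Ano1 had several start clusters, a closed first start and an inner start open in both animals. Of the 3972 protein-coding genes with several clusters and a closed first one, 25.2% had an open inner start. The 3 channel genes are too few to set against that share.

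In the gene bodies and 20 kb on either side, the channel genes held 210 distinct sites, merged over the animals where peaks shared at least 1 bp. Of these, 118 (56.2%) were found in both animals, 62 in replicate 1 alone and 30 in replicate 2 alone, against 60.3% found in both among all sites of the genome. The share was close to the background. Of the 118, 75 were intronic, 20 lay at a start of a member, 14 in flanks, 5 overlapped exons and 4 lay at the start of another protein-coding gene. Their median height was 0.813 in replicate 1 and 0.688 in replicate 2, against 1.14 and 0.892 for all sites found in both animals. The log2 ratio of replicate 1 over replicate 2 had a median of 0.34 at the channel gene sites and 0.37 at all sites. The 2 animals' heights lay within 2-fold of each other at 109 of the 118 sites (92.4%), against 94.0% of all sites.

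**Figure D3:**
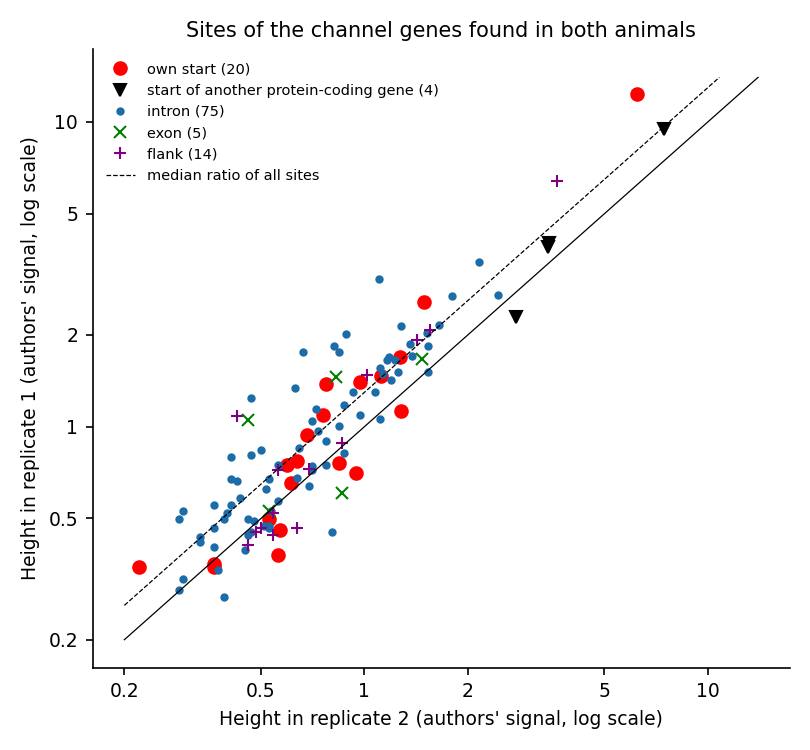
Height of the 118 channel gene sites found in both animals, replicate 1 (vertical) against replicate 2 (horizontal), on log axes in the authors' signal, with symbols for the class of site, a solid line of equal height and a dashed line at the median ratio of all sites. The points follow the dashed line, and the tallest point is the Itpr1 start at 12.3 in replicate 1 and 6.23 in replicate 2.

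Peaks away from the gene's own starts were counted per 10 kb of gene body and 20 kb flanks, a measure called distal density. Peaks at starts of other genes were counted too, such as those of Fadd around Ano1, Dcp1b around Cacna1c and Kcnj8 around Abcc9. Its median over the 10 genes was 0.473 in replicate 1 and 0.406 in replicate 2. All protein-coding genes had 0.542 and 0.457, and the 2492 genes over 100 kb had 0.391 and 0.330. Ano1 was the densest at 1.23 in replicate 1 and 0.983 in replicate 2, which is percentile 82.3 and 79.6 of protein-coding genes. Itpr1 followed at 1.14 and 0.661. For the gene body without flanks the order turned, with means over the animals of 2.21 for Kcnj8 and 1.47 for Kcnj11, against 0.918 for Ano1 and 0.917 for Itpr1. The bodies of Kcnj8 (6.78 kb) and Kcnj11 (6.81 kb) are short, so their values rest on very few peaks. With flanks, the range of Ano1 lay above that of every member other than Itpr1.

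Cacnb2 had the lowest mean over the animals, at 0.141 in each. Ryr2 had 0.219 in replicate 1 and 0.135 in replicate 2, which was below Cacnb2 in replicate 2. Kcnma1 had 0.366 and 0.301, and Cacna1c had 0.416 and 0.385. Abcc9 had 0.518 and 0.583, with little spread between the animals. The short genes Kcnmb1 (0.593 and 0.198), Kcnj8 (0.428 and 0.855) and Kcnj11 (0.854 and 0.427) rested on 1 to 4 distal peaks per animal, and their spread covers most of the range of the other members.

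**Figure D4:**
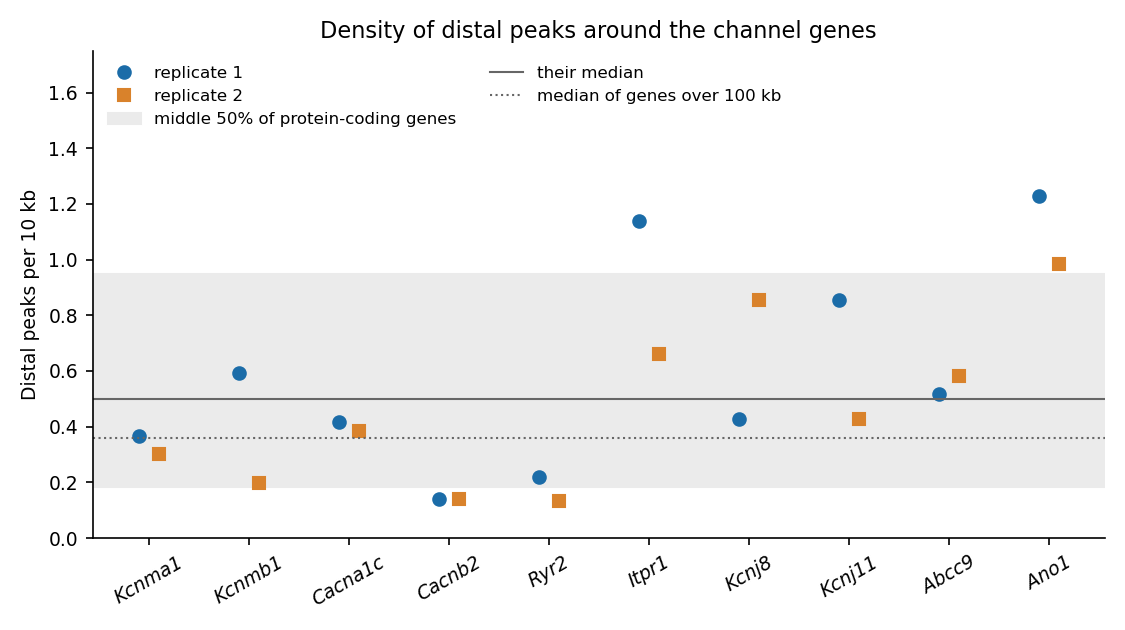
Distal peaks per 10 kb around each channel gene, with circles for replicate 1 and squares for replicate 2. The grey band is the middle 50% of protein-coding genes, the solid line their median and the dotted line the median of genes over 100 kb; Ano1 (1.23 and 0.983) lies above the band in both animals, and Cacnb2 (0.141 in each) below it.

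The signal summed over each domain was compared between the animals as log2 of replicate 1 over replicate 2, relative to the median of all genes, which was 0.49. The sums took in peaks at starts of other genes. Around Ano1 the tallest Fadd site gave 9.46 of 46.9 in replicate 1 and 7.44 of 26.7 in replicate 2. Around Abcc9 the Kcnj8 start gave 2.57 of 7.77 and 1.49 of 7.08. Relative values were positive for 3 channel genes, Itpr1 (0.44), Ano1 (0.30) and Ryr2 (0.15), and negative for 7, with a median of -0.13. Among all protein-coding genes, 9634 were positive and 12304 negative, so negative values were the more common there too. The channel genes are too few to set against that split. Abcc9 had -0.38, Kcnj8 -0.30, Kcnmb1 -0.26, Cacna1c -0.26, Kcnma1 -0.17, Cacnb2 -0.10 and Kcnj11 -0.01. Itpr1 stood at percentile 96.7 and Abcc9 at percentile 11.9 of all genes. For Itpr1 the covered length was 8.62 kb in replicate 1 and 7.04 kb in replicate 2 and the mean height 1.34 and 1.12, while for Abcc9 the length was 1.96 and 2.77 kb and the mean height 0.863 and 0.644.

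Marker genes of the tissue's cell types were compared between the animals in the same measure. Urothelial markers had a median of 0.30, with 5 of 5 positive, and smooth muscle markers had a median of -0.01, with 3 of 7 positive. Medians of the other lists were 0.30 for endothelial, 0.02 for pericyte, 0.003 for leukocyte, -0.02 for glial, -0.05 for fibroblast and -0.11 for nerve markers. Kit had -0.33. The split among all protein-coding genes was 9634 positive and 12304 negative, and all the marker lists are short. The summed start height of the 5 urothelial markers was 14.2 in replicate 1 and 8.79 in replicate 2, and that of the 7 smooth muscle markers was 9.16 and 7.07. The part of these cell types in the differences at the channel genes was not tested.

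The channel gene domains held 351 footprints in replicate 1 and 275 in replicate 2. Of these, 112 (31.9%) in replicate 1 and 116 (42.2%) in replicate 2 overlapped a footprint of the other animal, against 44.8% and 52.2% of all footprints. Footprints per kb of peak sequence had a median of 9.04 in replicate 1 and 8.75 in replicate 2 over the members, against 13.7 and 12.4 over all protein-coding genes. Both measures were lower than the background in both animals, as were the peak heights at these genes. Of the 118 sites found in both animals, 82 held a footprint of each animal, against 79.9% of all sites found in both animals, and 8 held none, against 4.68%.

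Consensus letters were searched on both strands in footprints extended by 5 bp. The CTCF core was found in 2.85% of channel gene footprints in replicate 1 and 2.91% in replicate 2, against 2.40% and 2.53% of all footprints. TTGGCA, letters bound by the NFI family, was found in 5.13% and 3.27%, against 3.04% and 2.50%. GGGCGG, bound by SP and KLF proteins and common at CpG-rich starts, was found in 3.99% and 2.91%, against 7.80% and 8.01%. These shares rest on 8 to 18 footprints each and on overlapping sets of sites, so small differences cannot be read.

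The CArG box was in 0 footprints of the channel genes in either animal, against 0.056% and 0.070% of all footprints, and MEF2 letters were in 0 as well. At such background shares, less than 1 footprint would carry either motif among 351 or 275. CArG letters lay in 3 of the 118 sites found in both animals, in introns of Abcc9, Cacna1c and Itpr1, outside any footprint, against 1.24% of all sites found in both animals. In windows of 150 bp the count was 1 of 118 (0.847%), against 0.674%, so the channel gene sites lay near the background. Of the RefSeq promoters, 11 belonged to 8 of the channel genes, with Itpr1 and Kcnj11 unmatched, and 0 of 11 held a CArG box, against 1.63% of all 32851.

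The CTCF core lay in footprints of both animals at 8 sites. Of these, 7 were among the 94 sites found in both animals away from starts of protein-coding genes, against 8.76% of all such sites. The 8 sites are shown because they include the highest site of Ryr2 and the 3 highest intron sites of Cacna1c. Capitals mark the 12-letter core, and the sequences are from GRCm38:
Ano1 downstream flank, chr7:144585817-144585852, plus strand: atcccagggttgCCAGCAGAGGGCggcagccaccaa
Cacna1c intron, chr6:118646829-118646864, plus strand: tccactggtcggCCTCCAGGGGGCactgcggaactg
Cacna1c intron, chr6:118923047-118923082, plus strand: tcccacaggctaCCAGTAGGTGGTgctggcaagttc
Cacna1c intron, chr6:119104454-119104489, minus strand: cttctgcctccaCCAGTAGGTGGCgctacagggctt
Kcnj11 intron, chr7:46096261-46096296, plus strand: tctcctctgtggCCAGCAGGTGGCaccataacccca
Kcnj11 start, chr7:46100790-46100825, plus strand: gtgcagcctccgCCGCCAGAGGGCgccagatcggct
Kcnma1 intron, chr14:23791587-23791622, plus strand: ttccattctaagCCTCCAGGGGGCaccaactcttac
Ryr2 intron, chr13:11563813-11563848, minus strand: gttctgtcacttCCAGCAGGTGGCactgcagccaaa

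NFI letters lay in footprints of both animals at 9 of the 118 sites, against 4.65% of all sites found in both animals. Of the 9, 4 were introns of Itpr1, and 1 was the Dcp1b start in the Cacna1c domain. The 4 Itpr1 sites are shown because 3 of them are the intron sites of the gene with the highest mean over the animals, with the NFI letters in capitals:
Itpr1 intron, chr6:108233138-108233167, plus strand: tttgtagagctgTTGGCAtggagccctggg
Itpr1 intron, chr6:108426950-108426979, minus strand: gctgcctgagggTTGGCAggttcccaactc
Itpr1 intron, chr6:108448556-108448585, plus strand: tgggtgttgtttTTGGCAggggagttagaa
Itpr1 intron, chr6:108476967-108476996, minus strand: gtgatggcccacTTGGCAaggccaaattca
The sites at 108233061, 108426841 and 108476801 reached 3.06, 3.46 and 2.69 in replicate 1 and 1.10, 2.16 and 1.80 in replicate 2. In windows of 150 bp, NFI letters occurred in 20 of the 118 channel gene sites (16.9%), against 14.5% of all sites found in both animals. Letters printed here are those of the reference genome, and the CAST copy of these sites was not analysed here.

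A list of 44 other channel and calcium handling genes was set beside the 10. Of these, 38 had a start open in both animals, and their highest starts had a median of 1.46 in replicate 1 and 1.15 in replicate 2, against 1.11 and 1.03 for the 10 members. The tallest were Orai1 and Stim1, which refill the calcium stores (13.8 and 8.24, and 7.59 and 5.52), the plasma membrane calcium pumps Atp2b4 (13.0 and 7.87) and Atp2b1 (7.80 and 4.60), and Ano10 (10.6 and 5.10). All 5 of these starts were taller than those of 9 of the 10 members in both animals. Orai1 and Atp2b4 were also taller than Itpr1 (12.3 and 6.23), and Stim1, Atp2b1 and Ano10 were lower than Itpr1.

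The closest relatives of the members were set beside them. Among BK subunits, Kcnmb4 was open at 0.592 in replicate 1 and 0.569 in replicate 2, and Kcnmb2 and Kcnmb3 had no peak at a start. Among calcium channel subunits, Cacnb3 (2.85 and 2.29) exceeded Cacnb2 in both animals, Cacnb1 (1.57 and 1.34) lay just above it, and Cacnb4 (0.687 and 0.612) and Cacna1d (0.663 and 0.671) lay lower. Among store channels, Ryr1 (1.04 and 0.612) and Ryr3 (0.426 and 0.348) were below Ryr2, while Itpr2 (5.42 and 3.90) and Itpr3 (3.54 and 2.69) were below Itpr1.

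Of the 4 genes grouped under chloride channels in the list, 3 had a taller start than Ano1 in both animals: Ano10, Ano6 (7.43 and 4.31) and Best1 (6.25 and 3.65). Genes of the list with no open start in either animal were Kcnmb2, Kcnmb3, Pln, which encodes the inhibitor of the store calcium pump, Abcc8 and Clca1. The densest domains of the list were those of Cacnb1 (2.11 and 1.79 distal peaks per 10 kb), Kcnn1 (2.45 and 1.14), Kcnn4 (1.95 and 1.24), Itpr3 (1.52 and 1.33) and Lrrc26 (1.45 and 1.21), an auxiliary BK subunit of epithelia. The median distal density of the list was 0.771 in replicate 1 and 0.626 in replicate 2, and the 10 members were lower in both animals at 0.473 and 0.406. The lists were not matched for gene length. Genes over 100 kb, as most members are, had lower medians (0.391 and 0.330) than all protein-coding genes (0.542 and 0.457).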

How the data were processed

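DNase-seq was measured in the bladders of 2 mice, which form 1 group. Per the labels, both libraries are on mm10; alignment and peak calling are not given in sources used here. The authors deposited a signal value for each peak, its height, with no unit stated. Within a tolerance of 0.05 steps, 100% of heights are whole steps of 0.00789 in replicate 1 and 0.00849 in replicate 2, which would mean 127 and 118 M reads if the unit were RPM. The deposited p-value type columns hold false discovery rates up to 0.05 and, for footprints, a constant 0.01, so footprints were not ranked.

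Of each animal's 2 peak lists, the one with more peaks was used. Genes came from GENCODE M21 and sequences from GRCm38 (132 of 132 member transcripts matched the genome), with bedtools 2.31.1, samtools 1.23.1, pysam 0.24.0, Python 3.11.15, pandas 2.3.3, numpy 2.4.6 and matplotlib 3.10.9. Start height is that of the highest peak within 1 kb, and summed signal carried a pseudocount of 1. Calculations were tested on simulated data. The 10 members, the list of other genes, the markers and the motifs were chosen with earlier results of these data known. All members are named; of other genes, those with the 5 tallest starts, the 5 densest domains, relatives and those with no open start; of sites, the highest of each member and those with motifs in footprints. No statistical test was made, and alternatives are given in the closing section.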

Additional observations from a re-analysis of the deposited data

How the results depend on the processing

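The count of start clusters open in both animals was 16 and lay between 12 and 19 with other peak lists, start windows or protein-coding transcripts alone, and without either animal it was 17 to 18; counting each distinct start apart gave 35. Sites found in both animals numbered 118, but 66 in the smaller peak list and 47 in the higher 50% of peaks, and between 148 and 180 when 1 animal was used alone, which counts every site of that animal. The median distal density of 0.439 became 0.206 in the smaller list, 0.124 in the higher 50% of peaks, 0.520 for the gene body alone, 0.376 with flanks of 10 kb and 0.526 with flanks of 50 kb, and 0.406 to 0.473 in 1 animal alone. The median difference between animals of -0.13 ranged from -0.26 with the smaller list to 0.02 with quantile scaling, and the sign changed for Ano1 under 1 of 7 settings and for Cacnb2 and Kcnj11 under 3 each. The 97 footprint stretches shared by both animals within sites became 251 to 331 in 1 animal alone. CTCF core, NFI and E-box letters, 3 motifs in all, had a higher share in channel gene footprints than in all footprints in both animals, against 4 to 7 motifs in 1 animal alone. The cause of these shifts was not tested. In the higher 50% of peaks, Kcnma1 and Abcc9 had 0 open starts, and in the smaller list Ano1 had 1 of 2, without its inner coding start. Gene by gene, the order of distal density turned for the gene body alone, where Kcnj8 had 2.21 and Ano1 0.918. The Kcnj8 body is only 6.78 kb long and held very few peaks. No paired analysis was possible because the series has 1 group.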
